A study of Mus musculus with 9 samples.

Results

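The effect shared by a pair of Wnt inhibitors, LF3 and ICG-001, was measured against the solvent DMSO in mouse salivary gland cancer stem cells. The members are 6 treated arrays, 3 for each inhibitor, set against 3 DMSO arrays, and together they make up all 9 samples of the series. Samples were placed by title, and both inhibitor groups were given equal weight, so each difference below is the mean of the LF3 and ICG-001 group means minus the DMSO mean on the log2 scale unless said otherwise. Cells of all 3 groups came from strain C57BL/6, were isolated from primary material and were grown in DMEM/F12 with knockout serum replacement, nonessential amino acids, antibiotics, L-glutamine and β-mercaptoethanol. Exposure lasted 24 h. The labels give neither the doses nor the genotype of the tumour, and leave unsaid whether the arrays of a group came from independent cultures. P-values here therefore measure the spread among these arrays alone, and that spread may be technical.

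In the canonical Wnt pathway, stabilised β-catenin enters the nucleus, binds DNA-bound factors of the TCF/LEF family and recruits coactivators such as CBP. LF3 was described as a disruptor of the contact between β-catenin and TCF4, the product of Tcf7l2, whereas ICG-001 binds CBP and keeps it from β-catenin. Wnt signalling is known for keeping epithelial stem and progenitor cells in an undifferentiated, dividing state, and the comparison asks what the inhibitors, which act at neighbouring steps, do on average to gene expression.

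The bead arrays report a fluorescence intensity for each probe, with a detection p-value against negative control beads. Mean signal per array ran from 398.2 to 467.3 with DMSO, 368.3 to 409.4 with ICG-001 and 340 to 396.5 with LF3, and 9939 to 10897 of 25697 probes were detected on an array. Of these probes, 10830 (42.1%) were detected on at least 3 arrays, and the brightest probe of each named gene gave 7354 genes, which are called measured below. Across probes, which are not independent replicates, arrays of a group correlated at r = 0.9873 to 0.9942 and treated arrays with DMSO arrays at 0.9614 to 0.9835. The first DMSO array stood apart from the other 2 for several genes named below, and received the lowest weight when arrays were weighted by their fit (0.418, against 2.02 and 1.05). Precision is set by how few arrays there are, and the median standard error of a pooled difference was 0.117.

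Cells given the inhibitors showed higher expression of many amino acid response genes, with Ddit3 5.11-fold and Gadd45a 4.76-fold higher, and lower expression of genes for cholesterol synthesis, DNA replication and the response to low oxygen. In all, 1020 genes (13.9% of those measured) were called higher and 1026 (14%) lower in limma's two-sided test at an adjusted p under 0.05. At least 2-fold differences were called for 69 of the higher and 64 of the lower genes. The balance between higher and lower depended on the scaling. As an alternative to quantiles, arrays were aligned by their medians over all 25697 probes (median scaling). Of these probes 38.7% to 42.4% were detected on an array, so the aligned value lay among undetected probes. Under median scaling the median of all genes moved from 0.000147 to -0.17, and 400 genes were called higher and 1871 lower. That puts 17.6% of the calls on the higher side against 49.9%. Counts for gene groups are therefore given under both scalings for many of the lists.

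All 6 treated arrays lay above the range of the 3 DMSO arrays for 645 genes (8.77%) and below it for 597 (8.12%). These genes were selected by the same values that the pooled difference uses, so their counts are a description. The difference had a median of 0.51 among the 645 and -0.53 among the 597. Of the 645 genes, 579 were also called by limma, and of the 597 genes, 520 were. At the border of the selection, Traf4 (0.24), Sspn (-0.50) and Nck2 (-0.18) lay just outside the DMSO range, while Zfp687 (0.43), Bfar (-0.25) and Zfp954 (0.23) lay just inside it. Removing the first DMSO array narrowed that range and raised the counts to 1050 and 1048. Where a gene had other probes, 276 of 296 for the 645 genes and 225 of 245 for the 597 genes had a difference of the same sign, but 88 and 90 of them also lay outside the DMSO range on that side.

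The inhibitors differed from each other for many of these genes. LF3 minus ICG-001, a comparison whose difference uses no DMSO array, was called by limma for 2923 of all measured genes (39.7%), for 202 of the 645 and for 172 of the 597. With all 6 treated arrays taken as 1 group, 36 of 127 tested genes among those chosen for naming were no longer called, among them Selenbp1, Scd1, Plk1, Lig1, Myc and Oasl1, because the gap between the inhibitors then counts as spread. ICG-001 had the higher level in 154 of those 202 genes and the lower level in 134 of those 172. On opposite sides of the DMSO range lay a further 406 genes (5.52%), 192 with LF3 above and ICG-001 below and 214 the other way round. For these the mean effect stands for neither inhibitor, and only 29 of them were called in the pooled comparison.

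**Figure D1:**
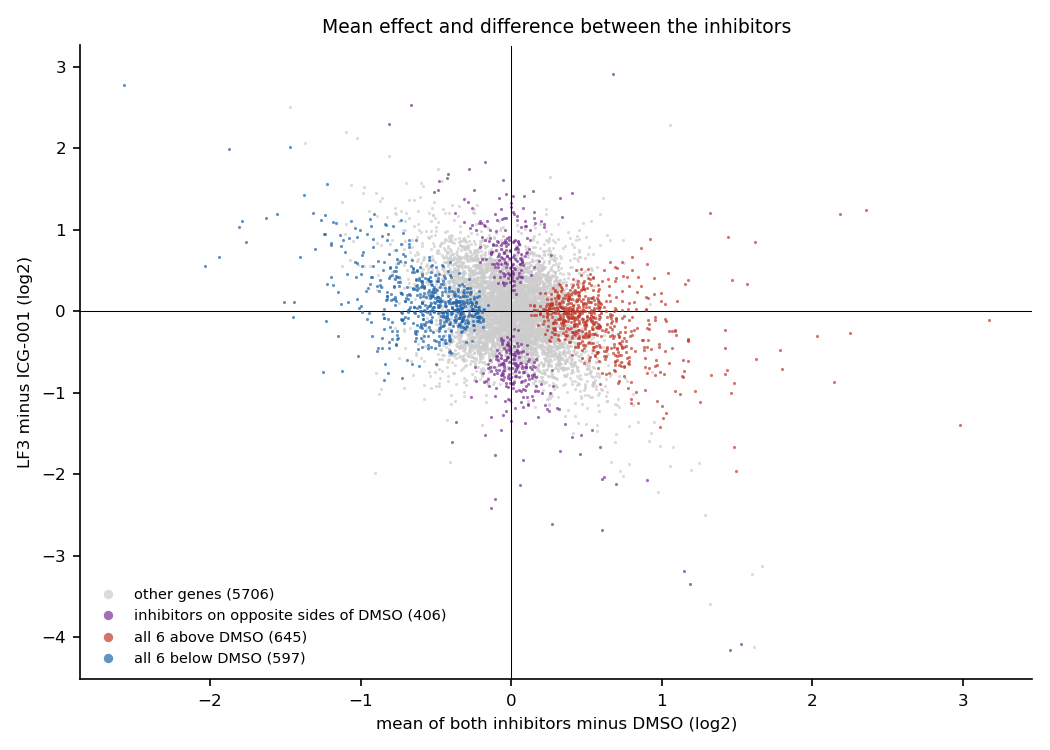
Each point is 1 of 7354 genes, with the mean of both inhibitors minus DMSO on the x axis and LF3 minus ICG-001 on the y axis, both on the log2 scale. Genes with all 6 treated arrays above (645, red) or below (597, blue) the DMSO range lie to the right and left, and the 406 genes with the inhibitors on opposite sides (purple) lie above and below the centre.

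The largest rise was that of Cox6a2, which encodes the muscle-type form of a cytochrome c oxidase subunit. Its log2 intensity was 5.58, 5.41 and 5.29 on the DMSO arrays, 8.66, 8.67 and 8.64 with ICG-001, and 8.16, 8.60 and 8.88 with LF3. It was detected on 2 of 3 DMSO arrays. The groups did not overlap and the inhibitors stood close together: Cox6a2 was 9.01-fold higher (difference 3.17 ± 0.14 SE, limma adjusted p = 7.39e-09), and LF3 minus ICG-001 was -0.11 (adjusted p = 0.611). Cdsn encodes corneodesmosin, an adhesion protein of cornifying epidermis. It stood at 7.45, 7.02 and 7.00 with DMSO, 10.95, 10.77 and 10.80 with ICG-001, and 9.26, 9.33 and 9.73 with LF3. Cdsn was 7.89-fold higher (limma adjusted p = 8.23e-09) and a second probe gave 2.11. All 3 ICG-001 arrays lay above all 3 LF3 arrays.

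Ddit3 encodes CHOP, a transcription factor of the integrated stress response. It stood at 9.21, 8.22 and 8.06 with DMSO, 10.19, 10.16 and 10.33 with ICG-001, and 11.25, 11.53 and 11.63 with LF3 (difference 2.35 ± 0.20, limma adjusted p = 2.92e-06). The first DMSO array was the nearest to the treated arrays, and the LF3 arrays were the highest. Gadd45a, a growth arrest gene induced by stress and DNA damage, stood at 8.85, 8.25 and 8.55 with DMSO, 10.82, 10.89 and 11.10 with ICG-001, and 10.36, 10.57 and 11.08 with LF3 (difference 2.25 ± 0.16, adjusted p = 6.74e-07). The inhibitor groups overlapped. Ppp1r15a, the phosphatase subunit GADD34 that restores translation after stress, ran from 6.88 to 7.07 with DMSO, 9.49 to 9.59 with ICG-001 and 8.37 to 8.91 with LF3, which made it 4.42-fold higher.

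The other large rises included signalling and membrane genes. Fa2h, which hydroxylates fatty acids for sphingolipids, was 4.55-fold higher, more so with LF3 (7.96 to 8.36) than with ICG-001 (6.84 to 7.20) against 5.29 to 5.49 with DMSO. Inhba, which encodes the activin A subunit, ran from 5.57 to 5.82 with DMSO, 7.61 to 8.04 with ICG-001 and 7.23 to 7.76 with LF3, a 4.08-fold difference. Sybu, a kinesin adaptor gene, was 3.48-fold higher, Havcr2, which encodes the immune receptor TIM-3, was 3.45-fold higher, and Rbm15, an RNA-binding partner of the m6A methyltransferase, was 3.07-fold higher. Ptgs2, the inducible cyclooxygenase, moved from 5.09 to 5.16 with DMSO up to 6.47 to 6.57 with ICG-001 and 6.75 to 7.04 with LF3. Sybu, Havcr2 and Ptgs2 were each detected on only 1 of 3 DMSO arrays. Grem1, a secreted BMP antagonist, was detected on no DMSO array and was at least 2.24-fold higher (limma adjusted p = 5.17e-07). The size of these differences depended on the background correction where DMSO levels were dim: without it Fa2h was 1.39, Inhba 1.33, Havcr2 1.03, Sybu 1.01 and Ptgs2 0.84 higher on the log2 scale, and each was still called.

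**Figure D2:**
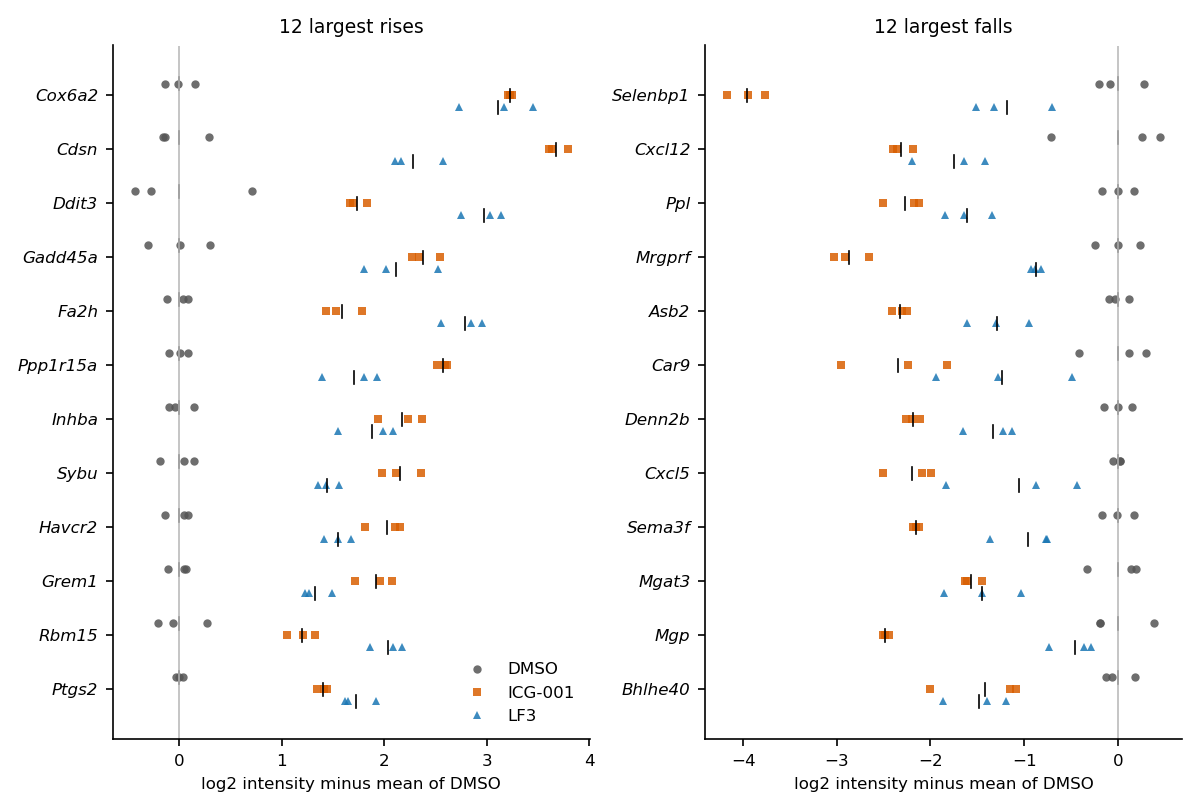
Log2 intensity minus the DMSO mean for the 12 largest rises (left) and 12 largest falls (right) among called genes with all 6 treated arrays outside the DMSO range. Each symbol is 1 array (3 per group) and the black bar is a group mean. Cox6a2 leads the rises at 9.01-fold, and Selenbp1, where ICG-001 lies far below LF3, leads the falls at 5.95-fold.

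The largest fall was that of Selenbp1, a selenium-binding protein that oxidises methanethiol. It stood at 9.52, 9.87 and 9.40 with DMSO, 5.83, 5.42 and 5.65 with ICG-001, and 8.89, 8.08 and 8.28 with LF3 (difference -2.57 ± 0.17, limma adjusted p = 3.3e-07). The LF3 arrays lay between the other groups, so the pooled value rests largely on ICG-001. Cxcl12, a chemokine that acts on the receptor CXCR4, stood at 8.71, 9.88 and 9.68 with DMSO, 7.24, 7.07 and 7.03 with ICG-001, and 8.01, 7.23 and 7.78 with LF3. Cxcl12 was 4.09-fold lower on this probe (difference -2.03 ± 0.22), and its other 2 probes gave -1.34 and -1.20. The first DMSO array was again the nearest to the treated arrays.

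Among the remaining falls, Asb2, a substrate receptor of a ubiquitin ligase, was 3.49-fold lower, Denn2b, a DENN domain gene, 3.40-fold lower, and Sema3f, a secreted guidance protein, 2.94-fold lower. In all 3 of these the ICG-001 arrays were the lowest. Cxcl5, a neutrophil chemokine, fell to no detection on the ICG-001 arrays and was at least 2.57-fold lower, with LF3 arrays spread from 5.16 to 6.55 against 6.95 to 7.02 with DMSO. Mrgprf, an orphan receptor gene (at least 2.80-fold), and Mgp, an inhibitor of matrix calcification (at least 2.06-fold), were likewise undetected with ICG-001 but detected on all LF3 arrays. Mgat3, which adds the bisecting sugar to N-glycans, was detected on no treated array and was at least 1.75-fold lower. These bounds stand in place of fitted differences, since the low side was below detection. Ppl, which encodes periplakin, was at least 3.22-fold lower on the brightest probe, but its second probe gave 0.21 (limma adjusted p = 0.272), so the fall was not seen on both probes.

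Several genes moved to nearly the same level with either inhibitor. Besides Cox6a2, the rises of at least 2-fold with the smallest LF3 minus ICG-001 were Ugt1a6a, a glucuronosyltransferase (difference 1.02), Acot2, a mitochondrial acyl-CoA thioesterase (1.02), Hmox1, the haem oxygenase induced by oxidative stress (1.03), Cth, which makes cysteine from cystathionine (1.10), and Mreg, a melanosome transport gene (1.09). Their LF3 minus ICG-001 values ran from -0.23 to 0.13. Acot2 had a second probe at 0.04 (limma adjusted p = 0.844), and genes of the Ugt1a family share exons, so the Ugt1a6a value may include its relatives. The matching falls were the transcription factor gene Etv1 (-1.01), the clock repressor Bhlhe40 (-1.45), Mettl7b (-1.13), Plvap, a protein of endothelial fenestrae (-1.44), the oxygen sensor Egln1 (-1.08) and Tmem176a (-1.23), with LF3 minus ICG-001 from -0.12 to 0.11. Bhlhe40 ran from 9.09 to 9.39 with DMSO, 7.21 to 8.13 with ICG-001 and 7.35 to 8.02 with LF3.

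The integrated stress response is a program in which kinases that sense amino acid lack, misfolded protein or other stress slow translation and raise the transcription factor ATF4. ATF4 then induces amino acid transporters, tRNA synthetases and stress regulators through a DNA element known as the amino acid response element. Of 52 listed genes of this program on the array, 43 were measured, and 21 were called higher and 1 lower. The 21 and 1 are 48.8% and 2.33% of the list, against 13.9% and 14% of all measured genes. The median difference was 0.29 against 0.000147 for all genes. Under median scaling 13 were called higher and 1 lower, with a median of 0.12 against -0.17. All 6 treated arrays lay above the DMSO range for 14 of the 43 and below it for 1.

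Ordered by role, the 14 genes began with the regulators Ddit3, Atf3 and Trib3. Atf3, a repressor of the same family as ATF4, was detected on no DMSO array (4.42 to 4.50), on all ICG-001 arrays (5.49 to 5.79) and on 1 LF3 array (4.92 to 5.72), which makes it at least 1.15-fold higher. Trib3, a pseudokinase that restrains ATF4 and CHOP, ran from 8.01 to 8.25 with DMSO, 8.55 to 9.09 with ICG-001 and 8.61 to 9.08 with LF3. Slc7a11 imports cystine and stood at 9.93, 9.73 and 9.90 with DMSO, 11.11, 11.11 and 11.05 with ICG-001, and 10.77, 10.86 and 10.76 with LF3 (difference 1.09 ± 0.10, limma adjusted p = 4.15e-06). Sulphur and folate metabolism added Cth, the glutathione-degrading Chac1 (0.59) and the mitochondrial folate enzyme gene Aldh1l2 (1.14), the last higher with ICG-001 (11.21 to 11.49) than with LF3 (10.42 to 10.65). Neutral amino acid transport was represented by Slc1a4 (0.45), and tRNA charging by the alanyl and tryptophanyl synthetase genes Aars (0.38) and Wars (0.58). Nupr1, a stress-induced chromatin protein, stood at 10.24 to 10.34 with DMSO, 10.99 to 11.19 with ICG-001 and 11.19 to 11.53 with LF3. Herpud1 (0.48), Gadd45a and Ppp1r15a completed the 14. Iars, the isoleucyl synthetase gene, was the gene below the range (-0.36).

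**Figure D3:**
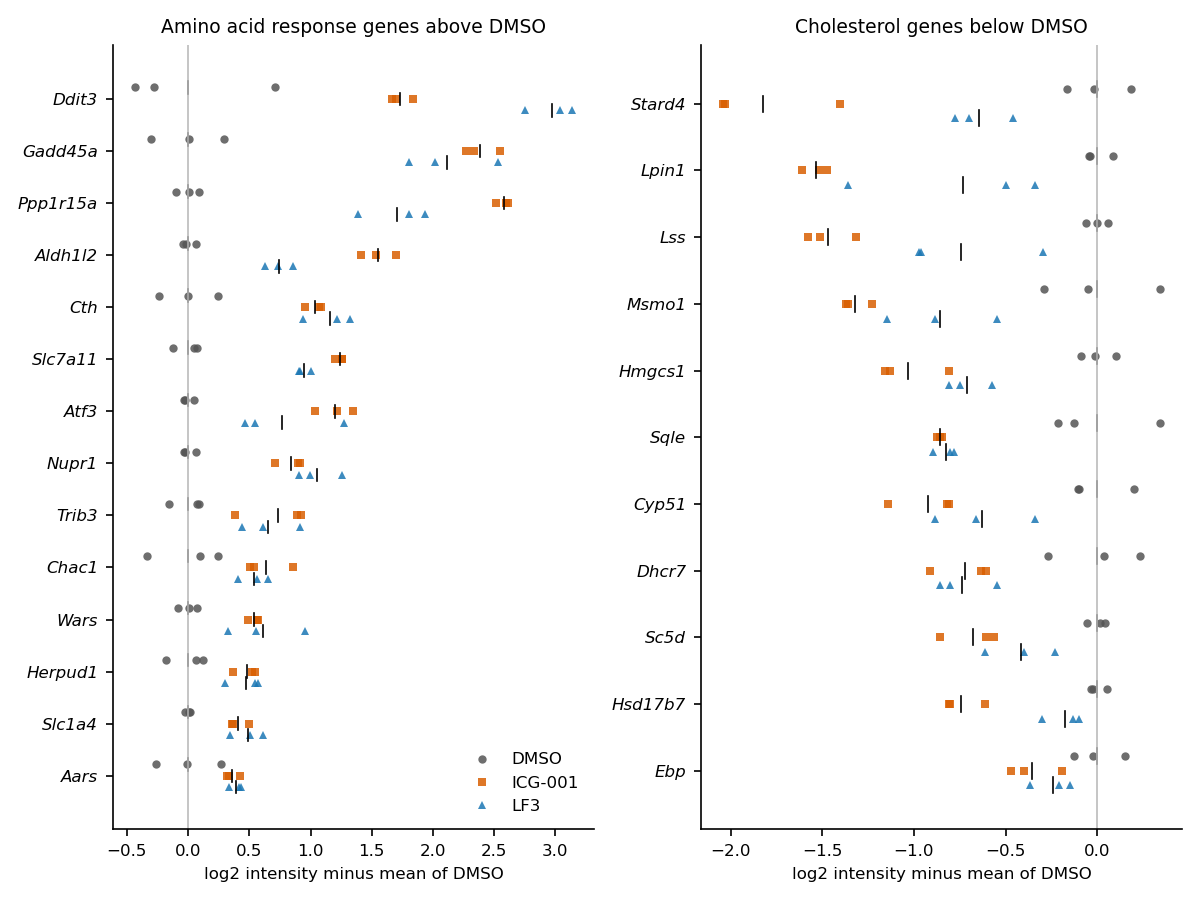
Log2 intensity minus the DMSO mean on each array for the 14 amino acid response genes with all 6 treated arrays above DMSO (left) and the 11 cholesterol genes with all 6 below (right), with black bars at group means. Ddit3 is the member with LF3 far above ICG-001, and in Stard4 the ICG-001 arrays lie far below the LF3 arrays.

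Promoters of these genes were searched for the amino acid response element, because it is the known landing site of ATF4. The motif searched was TGATGNAAN on both strands, in the RefSeq promoters of the build GRCm38.p6, each from 250 bases before to 50 bases after the gene start. A promoter was given for 11 of the 14 genes, and 8 of the 11 (72.7%) held the motif. It was found in 7 of 25 promoters (28%) of listed genes not outside the DMSO range, and in 166 of 6079 promoters (2.73%) of all measured genes. The list was drawn partly from genes known to carry the element, so a high share was built into it. Over all genes outside the DMSO range, the motif was in 5.19% of the promoters of the 645 above it and in 2.28% of those of the 597 below it. The 5.19% is 27 of 520 promoters and includes the 8 of the list, so it is not independent of the list. A match is a description of the letters and not evidence of binding. The windows below are shown because they line up the element, in capitals, across 8 genes from different steps of the program, each read 5′ to 3′ on the strand that holds it.
Aars, chr8:111033714-111033753, minus strand: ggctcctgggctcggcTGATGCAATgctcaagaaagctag
Atf3, chr1:191183420-191183459, plus strand: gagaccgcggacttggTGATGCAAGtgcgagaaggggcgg
Chac1, chr2:119351033-119351072, minus strand: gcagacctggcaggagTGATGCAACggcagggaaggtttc
Herpud1, chr8:94386301-94386340, minus strand: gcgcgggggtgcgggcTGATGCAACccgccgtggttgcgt
Nupr1, chr7:126625557-126625596, plus strand: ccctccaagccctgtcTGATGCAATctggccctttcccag
Slc1a4, chr11:20332694-20332733, plus strand: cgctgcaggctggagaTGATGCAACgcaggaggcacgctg
Slc7a11, chr3:50443655-50443694, minus strand: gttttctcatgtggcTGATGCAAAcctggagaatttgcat
Trib3, chr2:152344023-152344062, plus strand: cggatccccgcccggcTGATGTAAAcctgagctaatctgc
In Slc7a11 the element lay on the gene strand, 66 bases before the start, with a second copy on the other strand 48 bases before it. In the other 7 genes the copy shown lay on the strand opposite to the gene. Aars, Atf3, Herpud1 and Nupr1 had it 111 to 113 bases before the start and Chac1 194 bases before it. In Slc1a4 it began 5 bases before the start and in Trib3 14 bases into the gene. Iars, which lay below the DMSO range, also held the element, so the letters alone did not sort the genes by direction.

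Other stress programs were counted in the same way. Of 20 measured genes for folding in the endoplasmic reticulum, 4 were called higher (20%, against 13.9% of all measured genes) and 2 lower (10%, against 14%), which changed to 1 and 3 under median scaling and to 4 and 0 without the third DMSO array, the second ICG-001 array or the third one. Hspa5, the chaperone BiP, stood at 7.70 to 7.91 with DMSO, 8.12 to 8.65 with ICG-001 and 8.88 to 9.24 with LF3 (difference 0.90, limma adjusted p = 0.000238). The chaperone gene Hyou1 (0.49) and the oxidase gene Ero1b (0.51) were called too, but not under median scaling. NRF2 induces glutathione and thiol enzymes under oxidative stress. Of its 30 measured target genes 8 were called higher (26.7%) and 6 lower (20%), or 7 and 10 under median scaling. The inhibitors split this list, with a median against DMSO of 0.195 with LF3 and -0.241 with ICG-001. In the direct comparison LF3 was higher than ICG-001 in 19 of the 30 and lower in 1, and 5 genes lay on opposite sides of DMSO. Gsta1 (1.32) and Gsta2 (1.44), near-identical glutathione transferase genes whose probes may share signal, and the sulfiredoxin gene Srxn1 (0.84) were higher with LF3 than with ICG-001. Hmox1 ran from 7.09 to 7.45 with DMSO, 8.27 to 8.49 with ICG-001 and 7.79 to 8.71 with LF3. Keap1, the inhibitor of NRF2, lay below the range (-0.47).

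Targets of the tumour suppressor p53 were called higher in 13 of 30 measured genes and lower in 3, or 5 and 4 under median scaling. The 13 and 3 are 43.3% and 10% of the list, against 13.9% and 14% of all measured genes. Under median scaling 400 of all 7354 genes were called higher and 1871 lower. Without the second DMSO array the counts were 8 and 2, and without the third 8 and 3. The list median against DMSO was 0.37 with ICG-001 and 0.09 with LF3. In the direct comparison ICG-001 was higher than LF3 in 15 of the 30 and lower in 6. Besides Gadd45a, the polo-like kinase genes Plk2 (1.25) and Plk3 (0.95) had all 6 arrays above DMSO, Plk2 with ICG-001 at 10.25 to 10.45 and LF3 at 9.13 to 9.31 against 8.40 to 8.66. Ccng2 (-0.88) and Sesn1 (-0.80), both also known as FOXO targets, had all 6 below. Immediate-early genes and feedback inhibitors of ERK signalling answer growth factors and stress within minutes to hours. They were called higher in 12 of 25 and lower in 1, or 7 and 1 under median scaling. The 12 and 1 are 48% and 4% of the list, against 13.9% and 14% of all measured genes. The list median against DMSO was 0.58 with ICG-001 and 0.13 with LF3. In the direct comparison ICG-001 was higher than LF3 in 10 of the 25 and lower in 2. The group held Atf3, the antiproliferative gene Btg1 (0.70), the matricellular gene Ccn1 (0.55, not called under median scaling), Klf4, Spry4, Zfp36, Dusp2 and Ier3. Btg1 was even across treatments, at 11.93 to 11.95 with DMSO, 12.47 to 12.80 with ICG-001 and 12.63 to 12.68 with LF3.

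Genes for DNA replication were lower. Of 54 on the array 50 were measured, 28 were called lower and 0 higher, and the median difference was -0.35. The 28 are 56% of the list, against 14% of all measured genes. Under median scaling 36 were called lower and 0 higher. In that setting 1871 of all 7354 genes were called lower and 400 higher. In 22 of the 50 all 6 treated arrays lay below DMSO. In bulk RNA, fewer dividing cells and less RNA per dividing cell cannot be told apart. Rrm1, the large subunit of ribonucleotide reductase, stood at 10.45, 10.44 and 10.44 with DMSO, 9.32, 9.44 and 9.26 with ICG-001, and 9.61, 9.68 and 9.73 with LF3 (difference -0.94 ± 0.09, limma adjusted p = 1.29e-05). The replicative helicase was represented by Mcm3 (-0.59), Mcm4 (-0.80), Mcm5 (-0.62) and Mcm6 (-0.77), loading of the helicase by Cdc6 (-0.64), clamp loading by Rfc2 (-0.37), Rfc4 (-0.45) and Rfc5 (-0.30), and nucleotide supply by Tyms (-0.43) and Dut (-0.53). Mcm4 ran from 12.57 to 12.73 with DMSO, 11.54 to 11.78 with ICG-001 and 11.93 to 12.20 with LF3. Lig1, which joins Okazaki fragments, was -0.79 on the brightest probe, but its LF3 arrays (10.21 to 10.52) lay close to DMSO (10.58 to 10.74), and its other 3 probes gave -0.11, -0.40 and -0.73.

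Mitosis genes were called lower in 21 of 50 (42%, against 14% of all measured genes) and higher in 0. The list median against DMSO was -0.50 with ICG-001 and -0.08 with LF3. Under median scaling 33 were lower and 0 higher, and without the first DMSO array 15 were lower and 2 higher. LF3 was higher than ICG-001 in 28 of the 50 and lower in 1 in the direct comparison. Below the DMSO range on all 6 arrays lay 10 genes. Ncapd2, a condensin subunit, ran from 9.79 to 9.93 with DMSO, 8.48 to 8.91 with ICG-001 and 9.07 to 9.24 with LF3. Its other probes gave -0.40 (limma adjusted p = 0.104) and -0.50. The mitotic kinase gene Plk1 stood at 10.45, 10.45 and 10.62 with DMSO, 9.31, 9.54 and 9.47 with ICG-001, and 10.24, 10.31 and 10.14 with LF3 (difference -0.68 ± 0.10, adjusted p = 0.000274). The LF3 levels of Plk1 lay only just below DMSO. Mybl2, which drives late cell cycle genes, was even between the inhibitors (-0.69), as was Cdc20, an activator of the anaphase-promoting complex (-0.62). Among 35 repair and checkpoint genes 7 were called lower and 1 higher, or 16 and 1 under median scaling. The 7 lower genes are 20% of the list, against 14% of all measured genes. Fanci (-0.67), of the Fanconi anaemia pathway, and Msh6 (-0.57), of mismatch repair, had all 6 arrays below DMSO, and Rad9a (0.79), of the checkpoint clamp, had all 6 above.

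Promoters of the cell cycle genes were searched for the E2F site TTTCCCGC, which serves genes of the start of S phase, and the cell cycle homology region TTTGAA, which serves mitotic genes, on both strands. The E2F letters were in 5.19% of promoters of the 597 genes below the range, 1.35% of those of the 645 above it and 2.52% of all measured genes. In the DNA replication genes below the range they were in 3 of 20 promoters, and in the other measured replication genes in 3 of 23. The homology region was in 6 of 10 promoters of mitosis genes below the range and in 22 of 33 (66.7%) of the other measured mitosis genes, against 13.9% of all measured genes. The letters thus marked the mitosis list, whether or not a gene lay below DMSO. Windows of both kinds are shown because they sit in genes whose values are given here, with the motif in capitals.
Cdc6, E2F site, chr11:98907998-98908037, minus strand: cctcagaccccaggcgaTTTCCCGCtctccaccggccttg
Mcm3, E2F site, chr1:20820269-20820308, plus strand: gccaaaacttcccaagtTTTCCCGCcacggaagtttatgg
Pold3, E2F site, chr7:100121461-100121500, minus strand: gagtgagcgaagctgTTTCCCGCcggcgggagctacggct
Cdc20, homology region, chr4:118437337-118437376, minus strand: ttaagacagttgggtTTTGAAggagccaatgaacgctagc
Kif11, homology region, chr19:37376348-37376387, minus strand: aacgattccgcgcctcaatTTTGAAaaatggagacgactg
Kif22, homology region, chr7:127042413-127042452, plus strand: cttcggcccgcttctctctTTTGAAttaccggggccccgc
Ncapd2, homology region, chr6:125191685-125191724, minus strand: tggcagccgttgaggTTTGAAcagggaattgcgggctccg
Plk1, homology region, chr7:122159445-122159484, plus strand: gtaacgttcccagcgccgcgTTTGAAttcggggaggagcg
In Cdc20, Kif11 and Kif22 the region lay 17 to 19 bases before the gene start. The differences of the genes not yet given were -0.53 for Pold3, a polymerase δ subunit, -0.48 for Kif11, a spindle motor, and -0.55 for Kif22, a chromosome arm motor. Ndc80, a kinetochore gene, held the region too, but its difference was not called (-0.22, limma adjusted p = 0.101).

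Cholesterol synthesis had the largest share of genes below the DMSO range among the lists with at least 10 measured genes. Of 24 listed genes 19 were measured, and 16 of them (84.2%) were called lower and 0 higher. Among all measured genes 14% were called lower. Under median scaling 17 of the 19 were called lower and 0 higher. The median difference was -0.78, and 11 had all 6 arrays below DMSO. Against DMSO the list median was -1.03 with ICG-001 and -0.431 with LF3. In the direct comparison LF3 was higher than ICG-001 in 13 of the 19 and lower in 0. These genes are switched on together by SREBP2 when sterols are low. Along the pathway, Hmgcs1, which makes HMG-CoA, stood at 12.36, 12.17 and 12.24 with DMSO, 11.13, 11.10 and 11.45 with ICG-001, and 11.51, 11.68 and 11.45 with LF3 (difference -0.87 ± 0.11, limma adjusted p = 8.38e-05). The highest ICG-001 array and the lowest LF3 array of Hmgcs1 were level. Sqle, which oxidises squalene, was even between the inhibitors, at 10.33 to 10.35 with ICG-001 and 10.31 to 10.42 with LF3 against 10.98 to 11.54. Lss, which cyclises the product to lanosterol, ran from 8.95 to 9.07 with DMSO, 7.43 to 7.69 with ICG-001 and 8.04 to 8.72 with LF3. Later steps were represented by Cyp51 (-0.78), Msmo1 (-1.09), Hsd17b7 (-0.46), Dhcr7 (-0.73) and Sc5d, which no ICG-001 array detected (at least 1.25-fold lower). Stard4, a sterol carrier gene, had the largest difference of the 11 (-1.23 ± 0.15), with LF3 (8.54 to 8.86) well above ICG-001 (7.27 to 7.91). The 11 also held the sterol isomerase gene Ebp (-0.30, limma adjusted p = 0.0571, not called) and the lipin gene Lpin1, undetected with ICG-001 and at least 1.87-fold lower. Fdps (-1.37) and Nsdhl (-1.12), from the same pathway, were called although LF3 arrays overlapped DMSO: Fdps ran from 11.43 to 11.97 with DMSO, 8.85 to 9.92 with ICG-001 and 11.19 to 11.60 with LF3.

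Promoters of the cholesterol genes were searched for the sterol response element TCACNCCAC and the box CCAAT, where the SREBP partner NF-Y binds, on both strands. The box was in 8 of 9 promoters of the genes below DMSO and in 7 of 7 of the other measured members, against 44.6% of all measured genes. The sterol element was in 1 of 9, against 1.25% of all measured genes, and that gene was Hmgcs1. Its promoter, on the plus strand of GRCm38.p6, is shown because it carries both, the sterol element as TCACCCCAC and the box read on the other strand as ATTGG, all in capitals. The sterol element starts 137 bases before the gene start, between copies of the box.
Hmgcs1, chr13:119690101-119690400: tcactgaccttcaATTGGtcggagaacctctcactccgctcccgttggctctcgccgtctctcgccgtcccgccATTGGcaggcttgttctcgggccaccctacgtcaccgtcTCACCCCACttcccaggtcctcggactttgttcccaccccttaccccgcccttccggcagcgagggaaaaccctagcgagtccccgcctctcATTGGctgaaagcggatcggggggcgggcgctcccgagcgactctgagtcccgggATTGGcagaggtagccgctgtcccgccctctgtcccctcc

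Fatty acid genes followed in part, with 9 of 21 called lower and 2 higher (11 and 1 under median scaling). The 9 and 2 are 42.9% and 9.52% of the list, against 14% and 13.9% of all measured genes. Scd1, which desaturates stearate, stood at 10.50, 10.37 and 10.62 with DMSO, 9.06, 9.28 and 9.03 with ICG-001, and 10.28, 10.10 and 10.22 with LF3 (difference -0.84 ± 0.11, limma adjusted p = 7.17e-05). Most of that difference came from ICG-001. ICG-001 was also the lower for the relative Scd2, undetected on its arrays and at least 2.10-fold lower, and for the elongase gene Elovl6 (-1.20), at 8.44 to 9.30 with DMSO, 7.24 to 7.34 with ICG-001 and 7.93 to 8.20 with LF3. Dgat1, which completes triglyceride synthesis, lay above the range (0.65).

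The response to low oxygen and glycolysis overlap in their genes, since the factor HIF-1 induces most glycolytic enzymes. Of 20 measured hypoxia targets, 10 were called lower (50%) and 0 higher (14 and 0 under median scaling), with a median of -0.50. Of 16 measured glycolysis genes, 11 were called lower (68.8%) and 0 higher (10 and 0 under median scaling), with a median of -0.39. Without the first LF3 array 7 glycolysis genes were called lower. Among all measured genes 14% were called lower and 13.9% higher. The glycolysis median against DMSO was -0.702 with ICG-001 and -0.231 with LF3. In the direct comparison LF3 was higher than ICG-001 in 6 of the 16 and lower in 1. For hypoxia targets the medians were -0.278 with ICG-001 and -0.598 with LF3, and LF3 was higher in 4 and lower in 4. Car9, a carbonic anhydrase and a standard hypoxia marker, stood at 8.19, 8.91 and 8.72 with DMSO, 6.78, 5.65 and 6.36 with ICG-001, and 8.12, 6.67 and 7.33 with LF3. Its arrays varied within every group and the first LF3 array lay just below DMSO, so Car9 had a large standard error (-1.79 ± 0.28, limma adjusted p = 0.000411). The oxygen sensors Egln1 and Egln3 were steadier: Egln3 was 11.96 ± 0.048 (SD, n = 3) with DMSO, 10.61 ± 0.13 with ICG-001 and 10.93 ± 0.31 with LF3 (-1.19). The mitophagy receptor gene Bnip3l (-1.02), the histone demethylase gene Kdm3a (-0.73) and Pdk1, which keeps pyruvate out of mitochondria (-1.20), also lay below the range.

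In glycolysis itself, Pfkl, the liver-type phosphofructokinase, stood at 11.33 to 11.62 with DMSO, 10.23 to 10.52 with ICG-001 and 10.48 to 10.80 with LF3 (-0.95, limma adjusted p = 4.83e-05). A second Pfkl probe gave -0.05 (adjusted p = 0.805), so the fall was not seen on both. Pgam1 (-0.99), Tpi1 (-0.59), Aldoa (-0.55) and Pfkp (-0.52) also had all 6 arrays below DMSO.

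In the Wnt pathway itself genes were called in both directions. Of 38 listed target genes on the array, 25 were detected on no array and 12 were measured, of which 1 was called higher and 2 lower (1 and 4 under median scaling). These are 8.33% and 16.7% of the measured targets, near the 13.9% and 14% of all measured genes. Id2, an inhibitor of differentiation factors, stood at 7.77, 7.74 and 7.44 with DMSO, 6.11, 5.75 and 5.93 with ICG-001, and 7.18, 6.95 and 6.50 with LF3 (difference -1.24 ± 0.15, limma adjusted p = 4.06e-05). Kremen1, a receptor for the Wnt inhibitor Dickkopf, ran from 6.79 to 7.14 with DMSO, 5.94 to 6.36 with ICG-001 and 6.04 to 6.39 with LF3 (-0.83). These were the only targets with all 6 arrays below DMSO, and none had all 6 above. The target called higher was Myc (0.72, adjusted p = 0.00492), at 7.57, 6.76 and 6.68 with DMSO, 8.03 to 8.18 with ICG-001 and 7.21 to 7.38 with LF3. The LF3 arrays of Myc lay inside the DMSO range.

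Other Wnt targets named here showed no call in the pooled difference. Ccnd1, the G1 cyclin, had a difference of -0.01 ± 0.13 and ran from 12.07 to 12.60 with DMSO, 12.65 to 12.83 with ICG-001 and 11.85 to 12.18 with LF3. Cd44, a receptor for hyaluronan and a common marker of tumour stem cells, ran from 9.11 to 9.16 with DMSO, 9.57 to 9.73 with ICG-001 and 8.73 to 8.93 with LF3, on opposite sides of DMSO (0.12, limma adjusted p = 0.389). Birc5, the mitotic survivin gene (-0.21), and Sox9, a progenitor transcription factor gene (0.14), were not called. Sox9 was higher with LF3 (5.88 to 6.21) than with ICG-001 (5.17 to 5.47).

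Wnt pathway components were called higher in 7 of 29 measured genes and lower in 7, or 2 and 12 under median scaling, 7 and 11 without the first DMSO array and 3 and 6 without the third, and 6 lay above the DMSO range and 7 below it. The calls in the main setting were 24.1% of the list each way, against 13.9% and 14% of all measured genes. Tcf7l2, whose product LF3 is meant to keep from β-catenin, ran from 6.05 to 6.27 with DMSO, 5.49 to 5.67 with ICG-001 and 5.62 to 5.90 with LF3 (-0.54 ± 0.11, limma adjusted p = 0.002). β-catenin itself (Ctnnb1, -0.20) and the acetyltransferase p300 (Ep300, -0.17) were not called. Below the range lay the receptor genes Fzd2, which no ICG-001 array detected (at least 1.68-fold lower), and Lrp6 (-0.33), the ligand gene Wnt5b (-0.60), the β-catenin coactivator genes Bcl9l (-0.65) and Pygo2 (-0.38), and Ctnnbip1, an inhibitor of β-catenin binding to TCF (-0.66). Above it lay the casein kinase genes Csnk1e (0.90) and Csnk1d (0.29), Dvl1, which relays the receptor signal (0.41), Porcn, which acylates Wnt ligands and was detected on no DMSO array (at least 1.26-fold higher), the corepressor gene Tle1 (0.50) and the ligand gene Wnt7b (0.36). A second Csnk1e probe gave 0.47 (adjusted p = 0.115). The TCF site CTTTGATC was in 0.83% of promoters of the 597 genes below the range, 0.385% of those of the 645 above it and 0.724% of all measured genes, counted on both strands.

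Secreted signals moved in both directions. Of 29 measured genes for inflammatory cytokines and NF-κB targets, 13 were called higher (44.8%) and 5 lower (17.2%), or 10 and 7 under median scaling. Among all measured genes the shares were 13.9% and 14%. The list median against DMSO was 0.56 with ICG-001 but -0.14 with LF3. In the direct comparison ICG-001 was higher than LF3 in 22 of the 29 and lower in 3. The interleukin relative Lif (0.54), the chemokine Cxcl1 (0.54) and Ptgs2 had all 6 arrays above DMSO, and Cx3cl1, the membrane-tethered chemokine fractalkine, had all 6 below. Cx3cl1 ran from 7.23 to 7.71 with DMSO, 6.50 to 6.77 with ICG-001 and 5.74 to 6.00 with LF3 (-1.25, limma adjusted p = 9.86e-06), and is 1 of the falls that were deeper with LF3. Hbegf, a ligand of the EGF receptor, stood at 7.19, 6.83 and 6.77 with DMSO, 8.84, 8.65 and 8.71 with ICG-001, and 7.89, 7.97 and 8.02 with LF3 (1.42 ± 0.11, adjusted p = 1.69e-06). Igf2 (0.70) and its binding protein gene Igfbp4 (0.44, not called under median scaling or without the third DMSO array) were also higher. Of 19 measured growth factor and receptor genes 7 were called higher and 4 lower, or 4 and 7 under median scaling. Of 22 genes of TGF-β and BMP signalling, 6 were called higher and 6 lower, or 2 and 9 under median scaling. Without the second DMSO array the counts were 3 and 4, and without the third 3 and 3. The 6 are 27.3% of the list each way, against 13.9% and 14% of all measured genes. Above the DMSO range lay 13.6% and below it 9.09%, against 8.77% and 8.12% of all measured genes. Inhba, Grem1 and Fst (0.31), which encodes the activin antagonist follistatin, lay above DMSO, and Id2 and the BMP receptor gene Bmpr1a (-0.52) below it.

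Of 25 measured matrix and basement membrane genes, 4 were called higher and 9 lower, or 1 and 11 under median scaling and 2 and 8 without the first DMSO array. The 4 and 9 are 16% and 36% of the list, against 13.9% and 14% of all measured genes. LF3 minus ICG-001 was called for 15 of the 25, with LF3 the higher in 11. Tnc, which encodes tenascin-C, was detected on all ICG-001 arrays (6.64 to 6.77) but on 1 LF3 array (5.17 to 5.41) and 1 DMSO array (4.87 to 5.12). The basement membrane collagen genes Col4a5 (-0.91) and Col4a1 (-0.73) lay below DMSO. Col4a5 stood at 7.61 to 7.84 with DMSO, 6.17 to 6.26 with ICG-001 and 7.32 to 7.55 with LF3. Of 22 actin, SRF and YAP target genes, 6 were called higher (27.3%) and 3 lower (13.6%), or 4 and 5 under median scaling. Among them the transcription factor gene Tead4 (1.18), the phosphatase gene Ptpn14 (0.78) and the focal adhesion gene Zyx (0.68) lay above DMSO, while Yap1 (-0.52) lay below it.

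Growth and maintenance lists had counts that varied with the scaling or the DMSO arrays used. Among all measured genes 13.9% were called higher and 14% lower. For ribosome biogenesis the shares were 27.7% and 0%, and for cytosolic ribosomal proteins 3.64% and 1.82%. The respiratory chain had 8.45% each way and the proteasome 5.26% each way. All of these but ribosome biogenesis were called less often in both directions than genes in general. Ribosome biogenesis genes were called higher in 18 of 65 and lower in 0, but 9 and 0 when either the second or the third DMSO array was left out, 18 and 2 without the first, and 2 and 4 under median scaling. The list median was 0.19 and under median scaling 0.029, while that of all genes was 0.000147 and -0.17. Against DMSO the list median was 0.36 with ICG-001 and 0.10 with LF3. In the direct comparison ICG-001 was higher than LF3 in 25 of the 65 and lower in 4. Rrp9 (0.74), a nucleolar RNA-processing gene, was called under both scalings, whereas Heatr1 (0.49) and Gtpbp4 (0.38) were not, and Gtpbp4 was not called without the second DMSO array either. Of 55 cytosolic ribosomal protein genes, Rplp0 (0.39) and Rpl12 (0.33) were called higher and 1 lower, or 1 and 3 under median scaling. Rplp0 was not called under median scaling, nor Rpl12 without the second or the third DMSO array. In the respiratory chain 6 of 71 genes were called higher and 6 lower, or 1 and 5 without the second or the third DMSO array and 1 and 8 under median scaling. Beside Cox6a2, Uqcrh, a subunit of complex III, stood at 12.66 to 13.04 with DMSO, 11.29 to 11.75 with ICG-001 and 12.08 to 12.21 with LF3 (-1.03), and Cox7a2 was -0.81. Proteasome genes were called higher in 2 of 38 and lower in 2, or 0 and 0 without the second DMSO array and 0 and 7 under median scaling. Psme4 (-0.34), a proteasome activator gene, had a second probe at -0.05 (limma adjusted p = 0.805) and lost its call without any of 7 single arrays.

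Sqstm1, the autophagy receptor p62, led the lysosome and autophagy list, in which 6 of 38 were called higher and 1 lower (2 and 4 under median scaling, 3 and 2 without the second DMSO array and 3 and 1 without the third). It stood at 12.21, 11.91 and 12.03 with DMSO, 13.11, 13.37 and 13.48 with ICG-001, and 12.74, 12.91 and 12.83 with LF3 (1.02 ± 0.11, limma adjusted p = 2.68e-05). Atg12 (0.56) lay above DMSO and the lysosomal glucuronidase gene Gusb (-0.51) below it. The 6 genes called higher are 15.8% of the list and the 1 called lower 2.63%, against 13.9% and 14% of all measured genes. The cochaperone gene Bag3 (-0.76) lay below DMSO, and the heat shock list as a whole had 3 of 31 called in each direction, or 1 in each without the second or the third DMSO array and 0 higher and 5 lower under median scaling. The 3 are 9.68% of the list each way, below the shares of all measured genes. Trap1 (0.42) and Ptges3 (-0.33) were called, but Trap1 not without the first DMSO array or under median scaling, and Ptges3 not without any of 6 single arrays.

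In the Myc network, Mycl was detected on all ICG-001 arrays, 1 LF3 array and no DMSO array (at least 1.39-fold higher), and Mxd3 was undetected with ICG-001 but not with LF3 (at least 1.62-fold lower). Casp4, an inflammatory caspase gene, had the same detection as Mycl (at least 1.53-fold higher), and Casp6, an executioner caspase gene (-0.87), lay below DMSO with both inhibitors. Of 13 measured clock genes 4 were called higher and 3 lower, or 3 and 4 under median scaling. Above DMSO lay 4 of them and below it 1. Nfil3, a repressor of D-box genes (0.71), and Csnk1e lay above DMSO. The clock repressor gene Bhlhe40, named above among the falls, lay below it. The histone deacetylase gene Hdac5 (-0.99) stood at 10.21 to 10.42 with DMSO, 8.83 to 9.15 with ICG-001 and 9.50 to 9.83 with LF3, and its other 2 probes gave -0.88 and -0.89. The acetyltransferase genes Kat5 (-0.53) and Hat1 (-0.33) lay below DMSO too, with a second Kat5 probe at 0.21 (limma adjusted p = 0.246) and Hat1 not called without the second DMSO array. Slc11a2, the iron transporter DMT1, lay above DMSO (0.80). Of 17 measured iron and metal response genes 5 were called higher and 4 lower, or 3 and 5 under median scaling. Above DMSO lay 2 of them and below it 3.

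**Figure D4:**
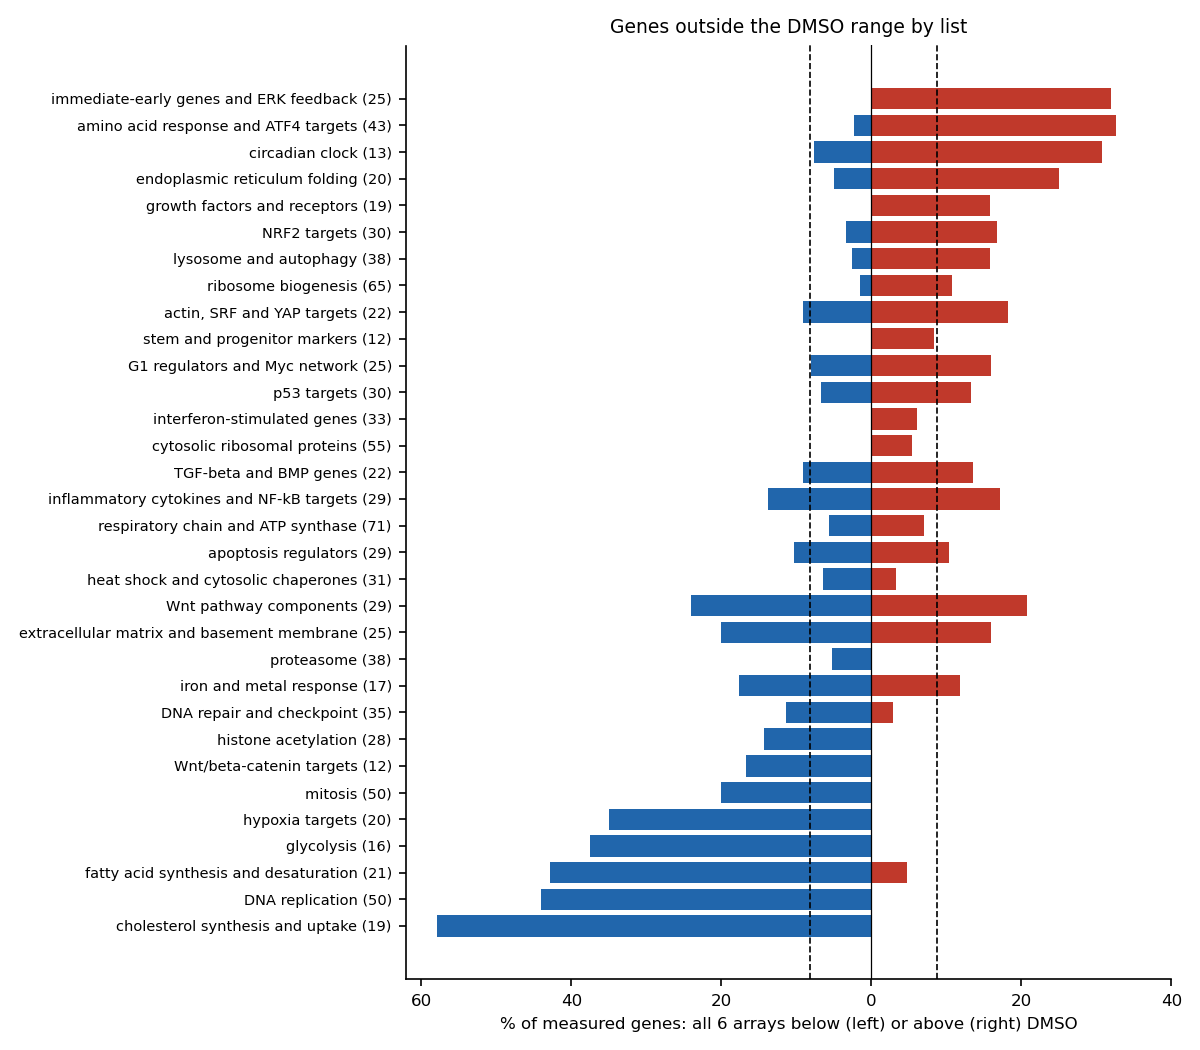
Share of the measured genes of each list (number in parentheses, lists with at least 10) with all 6 treated arrays above (right, red) or below (left, blue) the DMSO range, in percent. The dashed lines mark the shares among all measured genes, 8.77% above and 8.12% below. Cholesterol, DNA replication and fatty acid genes reach farthest to the left, and amino acid response and immediate-early genes farthest to the right.

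Cell type markers were examined because the label calls the cells stem cells. Of 28 stem and progenitor markers on the array, 15 were detected on no array, among them Aldh1a1, Prom1, Nanog and Pou5f1. Summed intensity of the 12 measured markers was 27690 to 29850 with DMSO, 16840 to 18800 with ICG-001 and 26880 to 29670 with LF3. The sum is dominated by Aldh3a1, the aldehyde dehydrogenase at 14.16 to 14.29 with DMSO, 12.98 to 13.21 with ICG-001 and 14.18 to 14.31 with LF3, whereas the list median against DMSO was -0.04 with ICG-001. In the pooled comparison 1 of the 12 was called higher (Klf4) and 2 lower (Aldh3a1 and Eng), or 0 and 3 under median scaling, and 2 lay on opposite sides of DMSO (Cd44 and Nes). The 1 and 2 called are 8.33% and 16.7% of the list, against 13.9% and 14% of all measured genes. Klf4 had all 6 arrays above DMSO (0.52, limma adjusted p = 0.00355), but was not called under median scaling. Salivary acinar markers summed to 7413 to 8770, 6729 to 7185 and 7350 to 7661, with the acinar secretory genes Amy1, Smgc and Bpifa2 undetected. Ductal markers summed to 5453 to 6445 with DMSO, 3013 to 3421 with ICG-001 and 3491 to 4152 with LF3, with Krt7, Krt18, Krt19 and Cdh1 undetected. The secreted ductal protein gene Wfdc2 fell by 0.83 and Etv1, from the acinar list, by 1.01. The part of any shift in cell types in these values was not tested.

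Markers of other cells were mostly undetected. Of 39 squamous markers on the array 28 were detected on no array, among them Ivl, Lor, Krt1 and Tgm1, and the 7 measured summed to 1615 to 1771 with DMSO, 2839 to 3246 with ICG-001 and 2253 to 2654 with LF3. The higher sums do not stand for the list, in which 2 of the 7 were called higher and 3 lower. The list median against DMSO was -0.11 with ICG-001 and 0.03 with LF3. Beside Cdsn and Fa2h, which rose, Ppl and the desmosomal Pkp2 (-0.40) lay below DMSO. Basal markers summed to 2015 to 2362, 2134 to 2313 and 1670 to 2021, with Krt5, Krt14 and Trp63 undetected. For leukocytes, Ptprc, Adgre1 and Itgam were undetected and the 6 measured markers summed to 4967 to 5488, 4796 to 4939 and 3839 to 4708. Cd74, the invariant chain of class II antigen presentation, was detected with ICG-001 alone.

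Fibroblast markers summed to 10810 to 11280 with DMSO, 7704 to 8682 with ICG-001 and 7716 to 8921 with LF3, with Col1a2, Col3a1 and Dcn undetected. The intermediate filament gene Vim ran from 12.60 to 12.72, 12.04 to 12.26 and 11.83 to 12.09 in the same order (-0.59, limma adjusted p = 0.000867). S100a4 fell by 0.59, and the mesenchymal transcription factor gene Prrx1 lay above DMSO (0.63), chiefly with ICG-001 (7.37 to 7.49 against 6.36 to 6.51). Endothelial markers summed to 454.5 to 542.6, 304.8 to 357.1 and 295.5 to 351.2, with Pecam1, Cdh5 and Kdr undetected. Plvap stood at 7.86 to 8.32 with DMSO, 6.40 to 6.87 with ICG-001 and 6.61 to 6.94 with LF3, and the receptor gene Tie1 was detected only with DMSO (at least 1.09-fold lower). Mmrn2 (0.32) was called, but not under 14 of the 21 alternatives run.

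Interferon-stimulated genes, which answer viral nucleic acid and type I interferon, show where a mean effect can mislead. Of 33 measured genes 19 were called higher and 1 lower (16 and 3 under median scaling). The 19 and 1 are 57.6% and 3.03% of the list, against 13.9% and 14% of all measured genes. The pooled median was 0.61, but it was 1.25 with ICG-001 and -0.26 with LF3, each against DMSO. ICG-001 was higher than LF3 in 28 of the 33 and lower in 0 in the direct comparison. Leaving out any 1 ICG-001 array cut the measured genes to 28, while leaving out a DMSO or LF3 array kept all 33. The members lost were thus kept by detection on the ICG-001 arrays alone, so the filter itself favoured their direction in these counts and medians. With the 28, 14 or 15 were called higher and the pooled median was 0.428 to 0.476. Of the 33, only Oasl1 and Ifitm3 had all 6 arrays above DMSO, 13 genes lay on opposite sides of it and the remaining 18 showed none of these patterns. Usp18, which removes ISG15 from proteins, stood at 5.45, 5.74 and 5.59 with DMSO, 9.88, 8.98 and 8.52 with ICG-001, and 5.32, 4.78 and 4.79 with LF3. Every ICG-001 array lay above DMSO and every LF3 array below it.

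Of the 6 genes with the widest split of this kind, 5 are of this family: Usp18, Oasl2, Gbp3, Isg15 and Cmpk2. Isg15, the ubiquitin-like modifier, stood at 4.90, 5.37 and 5.25 with DMSO, 8.63, 7.84 and 7.26 with ICG-001, and 4.77, 4.51 and 4.90 with LF3. Its LF3 arrays were all below detection, as were those of Oasl2, Gbp3 and Cmpk2, so their distance below DMSO is not measured. The sixth, Gsta4, a glutathione transferase that clears lipid peroxides, had the reverse order: 7.06 to 7.47 with DMSO, 6.34 to 6.60 with ICG-001 and 9.07 to 9.65 with LF3. Oasl1 lay above DMSO with both, at 8.25 to 9.00 with ICG-001 and 6.57 to 6.63 with LF3 against 5.92 to 6.21, and Ifitm3 at 13.31 ± 0.20 (SD, n = 3) and 12.36 ± 0.16 against 12.06 ± 0.095.

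**Figure D5:**
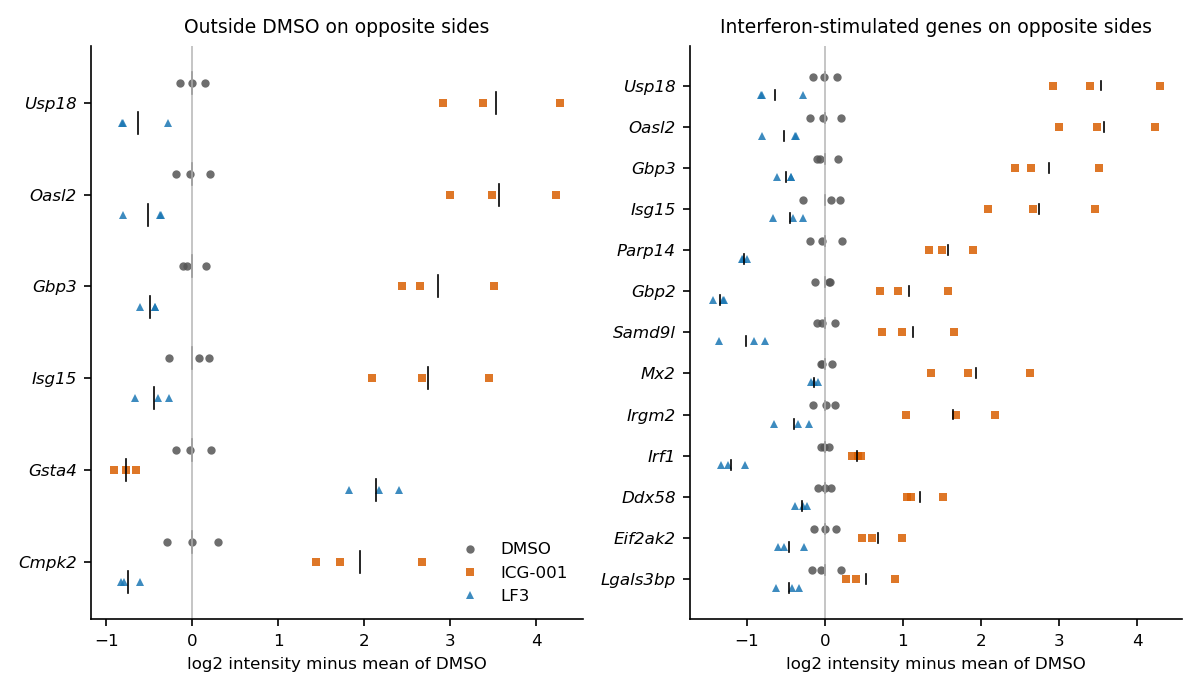
Log2 intensity minus the DMSO mean on each array for the 6 genes outside the DMSO range on opposite sides with the largest difference between the inhibitors (left), and for the 13 interferon-stimulated genes on opposite sides (right), with black bars at group means. ICG-001 lies above DMSO and LF3 below it in every gene shown but Gsta4, where the order is reversed.

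A pooled call did not require that both inhibitors moved. Of the called genes, 441 higher and 506 lower did not have all 6 treated arrays outside the DMSO range on that side, and LF3 minus ICG-001 was called in 328 and 348 of them. The largest such rises were Ifit3 (1.66), Rsad2 (1.61), Oasl2 and Ccl4, the last 2 undetected with LF3. Rsad2, the antiviral enzyme viperin, ran from 5.27 to 5.60 with DMSO, 8.36 to 10.08 with ICG-001 and 4.78 to 5.36 with LF3. Ccl4, a chemokine gene, was detected on the ICG-001 arrays alone. The largest such falls were Angpt2, Fdps, Nsdhl and the histone gene H2ac21. Angpt2, an antagonist of the receptor Tie2, stood at 7.47 to 7.72 with DMSO and 7.25 to 7.67 with LF3, and was undetected with ICG-001 (4.87 to 4.92), at least 2.38-fold lower on average. H2ac21 (-1.12 ± 0.33, limma adjusted p = 0.0232) varied from 8.86 to 10.64 among the DMSO arrays and was not called without the first (-0.63) or the second of them. Its probe may share signal with near-identical histone genes.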

How the data were processed

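Per the file headers, each array of the deposited table has an intensity column on a linear scale and a column of detection p-values. The authors' processed intensities, a second deposited table, served as an alternative. The submitters' processing notes name GenomeStudio 2010.1. How the processed values were normalized is not given in the sources used here. Intensity columns were matched to samples by name, and each detection p-value column by its place after its signal column. Gene symbols came from the annotation of the platform: 23978 of 25697 had 1 gene symbol, and 23962 matched RefSeq by Entrez ID.

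Background was corrected by normexp with the detection p-values and an offset of 16 (limma 3.58.1, R 4.3.3), then log2 and quantile normalization were applied. The offset compresses differences of dim genes. A probe was kept where 3 or more of the 9 arrays had it at a detection p-value under 0.01, and the brightest stood for its gene. All 9 arrays entered 1 limma fit with a mean for each group. Tests were two-sided, with Benjamini-Hochberg adjustment over all 10830 kept probes, with a threshold of 0.05. Where no array of a group detected a probe, a fold is given as "at least", from the higher of the lowest detected signal and the probe's own.

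Genes named are the 12 largest rises and falls, the 3 most significant genes per list, and the 6 most alike each way. Also named are the 6 widest on opposite sides and 8 fixed Wnt genes. The 4 largest calls each way without all 6 treated arrays outside the DMSO range on that side were added. List members outside the DMSO range were named too, and these were chosen after their values were seen. Members, lists and rules were chosen with earlier results of these data known. The scripts were tested on simulated data. No 2 arrays held identical values.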

Additional observations from a re-analysis of the deposited data

Results flagged for a closer look

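Each of the following genes is named above for its mean effect, but LF3 minus ICG-001 passed limma's test and was larger than that mean effect. Among the 133 genes named by rule, 84 passed LF3 minus ICG-001, 34 of them with a difference larger than the mean effect and 50 with a smaller one. All values are fitted differences, LF3 minus ICG-001, on the log2 scale. Where an inhibitor never detected the probe, the fitted difference is no measured size, and the fold between the inhibitors is given as a lower bound.

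Among interferon-stimulated and antiviral genes ICG-001 was higher: Usp18 (-4.16), Rsad2 (-4.13), Oasl2 (-4.09), Gbp3 (-3.35), Isg15 (-3.19), Ifit3 (-3.13), Cmpk2 (-2.69), Oasl1 (-1.96) and Ifitm3 (-0.95). No LF3 array detected Oasl2, Gbp3, Isg15 or Cmpk2, which were at least 12.6, 5.83, 5.83 and 3.41-fold higher with ICG-001. Without background correction the fitted differences were -2.03 for Gbp3, -1.95 for Isg15 and -1.52 for Cmpk2, all still called by limma. The same direction was found for the immune and cell death genes Ccl4 (-3.23), Casp4 (-1.17) and Cd74 (-0.79), for the matrix gene Tnc (-1.42), and for the transcription factor genes Mycl (-0.97), Myc (-0.80), Prrx1 (-0.77) and Klf4 (-0.60). Ccl4 and Cd74 were undetected with LF3, and at least 4.83-fold and 1.18-fold higher with ICG-001. The Wnt targets Cd44 (-0.84) and Ccnd1 (-0.72) were also higher with ICG-001, while Sox9 (0.73) was higher with LF3.

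LF3 was higher for the lipid synthesis genes Fdps (2.07), Scd2 (1.42), Nsdhl (1.34) and Scd1 (1.08), and for the cell cycle genes Lig1 (1.05), Mxd3 (0.92) and Plk1 (0.79). It was also higher for Gsta4 (2.91), Selenbp1 (2.78), Angpt2 (2.51), Mgp (2.02), Mrgprf (1.99), Col4a5 (1.20) and Ero1b (0.51). No ICG-001 array detected Angpt2, Mrgprf, Mgp, Scd2 or Mxd3, which were at least 4.23, 2.33, 2.24, 1.75 and 1.51-fold higher with LF3. Groups of 3 arrays were too small to test single arrays as outliers.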

How the results depend on the processing

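Limma's two-sided calls in the main setting were 1020 higher and 1026 lower. Treating the 6 treated arrays as 1 group gave 321 and 300, because the difference between the inhibitors then enters the spread. Median scaling gave 400 and 1871, with 186 genes above the DMSO range, 183 of them shared with the 645 of quantile normalization, and 1141 below it, 586 of them shared with the 597; the cause was not tested. Leaving out 1 array gave 676 to 1061 genes higher, 620 to 1065 lower, 690 to 1050 above, 644 to 1048 below, 450 to 641 on opposite sides (406 with all arrays) and 720 to 1106 pooled calls that also differed between the inhibitors (1046 with all arrays). The lowest counts of calls came without the second DMSO array, and the highest counts outside the range without the first. No background correction, an offset of 50, cyclic loess, no filter on dim probes, detection on all arrays, an intensity trend, array weights, the mean of a gene's probes and the authors' processed values kept all 6 counts within 1.5 times.

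Arrays with the same replicate number did not deviate together (r from -0.239 to 0.166 over 9 pairs, against -0.239 to 0.356 over 18 pairs with different numbers), so the numbers are not taken as pairs. With the replicate number as a block, 918 genes were higher, 962 lower and 944 of the calls also differed between the inhibitors. Of the named genes, Psme4, Ptges3 and Mmrn2 were not called with it.

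Among 2743 values of single named genes under the alternatives, 2649 kept direction and call, 85 lost the call, 3 gained it and 6 changed sign, none of these 6 called in either setting. Cd44 was -0.074 and Sox9 -0.026 under median scaling. Ccnd1, at -0.01 with all arrays, ran from -0.18 without the first DMSO array to 0.085 without the third, and was above 0 without the second DMSO array, the third ICG-001 array or the second LF3 array too. Treating the inhibitors as 1 group accounts for 36 of the lost calls.

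Limits: doses are unknown, 3 arrays a group share an unknown source, and differences of dim genes depend on the background correction. A gene undetected on every array of a group has a lower bound as its fold, and its fitted difference is no measured size.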
